A study of Mus musculus with 10 samples.

Results

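Fabp7, Fabp5 and Fabp3, the genes of the brain, epidermal and heart fatty acid binding proteins, were examined in cerebellum of mice with and without the clock gene Bmal1. They are 3 of the 22046 genes in the deposited table. They were chosen by the RPKM of Fabp7 in total RNA and in footprints, which rose strongly in the knockout, so the genotype difference of Fabp7 in total RNA and in footprints is given as a description with no test. Fabp5 and Fabp3 were taken with it as the family members that brain cells are known to use, and their differences, as well as translational efficiency in all 3 genes, were tested.

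The study compared Bmal1-/- mice (knockout) with Bmal1+/+ littermates (wild type) from crosses of Bmal1+/- parents on a C57BL/6 background, housed with 12 h of light a day. The allele is constitutive, so every cell of the knockout animals lacks Bmal1, and age, sex and hour of dissection were not given in the sources used here. Part of each cerebellar lysate was digested with RNase I and the fragments protected by ribosomes were sequenced (footprints), while the rest was fragmented and sequenced as total RNA. Values of 8 libraries were used, from knockout animals 1 and 3 and wild-type animals 2 and 3, each with both kinds of library, and the total RNA libraries of a further animal of each genotype were not analysed here.

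Fatty acid binding proteins are small cytosolic proteins that fold into a barrel around a single long-chain fatty acid or a related lipid and carry it between membranes, enzymes and the nucleus. Fabp7 prefers long polyunsaturated fatty acids such as docosahexaenoic acid. It is a marker of radial glia in the developing brain and of astrocytes and Bergmann glia, the radial astrocytes of the cerebellar cortex. Fabp5 is made by many cell types and can carry fatty acids and endocannabinoids, and Fabp3, best known from heart and skeletal muscle, is found in neurons of the adult brain.

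The 3 genes lie on separate chromosomes in mm10 with GENCODE M21 models, all on the plus strand. Fabp7 (ENSMUSG00000019874) spans 57784881 to 57788450 of chromosome 10. Fabp5 (ENSMUSG00000027533) spans 10012548 to 10016607 of chromosome 3, on the chromosome that also carries Pmp2, Fabp9, Fabp4 and Fabp12. Fabp3 (ENSMUSG00000028773) spans 130308595 to 130315463 of chromosome 4. The coding sequences are 396, 405 and 399 bases long for Fabp7, Fabp5 and Fabp3. Aligned over their length, Fabp7 and Fabp3 had 66.9% identical coding bases, Fabp3 and Fabp5 had 57.3%, and Fabp7 and Fabp5 had 57.0%. The stretch that follows shows how near the coding sequences are and where footprints can still tell them apart. It is 60 bases from the end of the first to the start of the second coding exon, read 5′ to 3′ from the mm10 reference at chr10:57785057-57785540, chr3:10012694-10015005 and chr4:130308826-130312325 with the intron left out, and capitals mark the 36 bases that are the same in all 3.
Fabp7: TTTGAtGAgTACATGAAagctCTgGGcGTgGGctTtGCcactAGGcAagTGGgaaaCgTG
Fabp5: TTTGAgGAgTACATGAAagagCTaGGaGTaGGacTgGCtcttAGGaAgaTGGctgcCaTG
Fabp3: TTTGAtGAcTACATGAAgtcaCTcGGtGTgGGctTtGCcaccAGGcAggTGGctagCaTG
The longest run of bases shared in the alignments was 20 bases, between Fabp7 and Fabp3, which is shorter than a footprint. The 3 genes are therefore told apart from each other by reads of footprint length, but not all of them from their own processed pseudogenes, which are copies of a spliced RNA put back into the genome. Of the 28-base words of the coding sequence, 0 of 369 occurred in another annotated gene for Fabp7. For Fabp5, 323 of 378 words (85.4%) did, in 5 processed pseudogenes led by Gm6166, which held 72.0% of the words. For Fabp3, 305 of 372 words (82.0%) did, in 2 pseudogenes led by Fabp3-ps1 with 77.4%. How reads that match several places were counted was not given in the sources used here, so the levels of Fabp5 and Fabp3 are uncertain in a way that those of Fabp7 are not.

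Whole reads could be recovered from the deposited values, and the libraries held 25586299 to 43192331 reads on genes. The knockout total RNA libraries were the deeper ones, at 38923379 and 43192331 reads against 25586299 and 27754274 in the wild type, and the footprint libraries ran from 27681214 to 40981429. The targeted gene, listed under its symbol Arntl, had footprint RPKM of 124 and 107 in the knockout and 258 and 295 in the wild type, where RPKM is reads scaled by a length of the gene and by the depth of the library. In total RNA it was at 267 and 272 in the knockout and 179 and 179 in the wild type, a value over the whole gene that does not check the loss of exons. Of 8 listed Purkinje cell markers and 8 listed granule cell markers all were detected, with sums of 8773 to 10940 and 5327 to 6528 RPM in total RNA, where RPM is reads scaled to the depth of the library alone.

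Fabp7 RNA was far more abundant in the knockout cerebellum. In total RNA it had 244 and 249 RPKM in knockout animals 1 and 3, from 28813 and 32606 reads. In wild-type animals 2 and 3 it had 17.9 and 16.6 RPKM, from 1425 and 1406 reads. The groups lay far apart, with means of 246.5 ± 3.07 and 17.2 ± 0.965 RPKM (SD, n = 2 each), and animals of 1 genotype differed little. The ratio of the means was 14.3, and single pairs of a knockout and a wild-type animal gave 13.6 to 15.0. On the log2(RPKM + 1) scale used for every fold change here, the difference was 3.76 (SE 0.09), the second highest of the 12690 genes measured in total RNA. In bulk tissue, more cells that express Fabp7 and more Fabp7 RNA per cell cannot be told apart.

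Ribosome footprints on Fabp7 were higher in the knockout as well. The footprint level was 809.8 and 678 RPKM in knockout animals 1 and 3, from 93326 and 57849 reads, and 43.7 and 37.7 RPKM in wild-type animals 2 and 3, from 4672 and 2929 reads. Again the groups lay far apart, with means of 744 ± 93.4 and 40.7 ± 4.25 RPKM (SD, n = 2 each). The ratio of the means was 18.3, with single pairs from 15.5 to 21.5. The log2 difference of 4.16 (SE 0.15) was the third highest of 12447 genes. As background for Fabp7, which was chosen for this difference, the knockout lay wholly above the wild type in 17.1% of genes in footprints. At the threshold of the tests, 2.48% of genes were called higher in total RNA and 0.129% in footprints at a limma adjusted p (Benjamini-Hochberg) under 0.05.

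**Figure D1:**
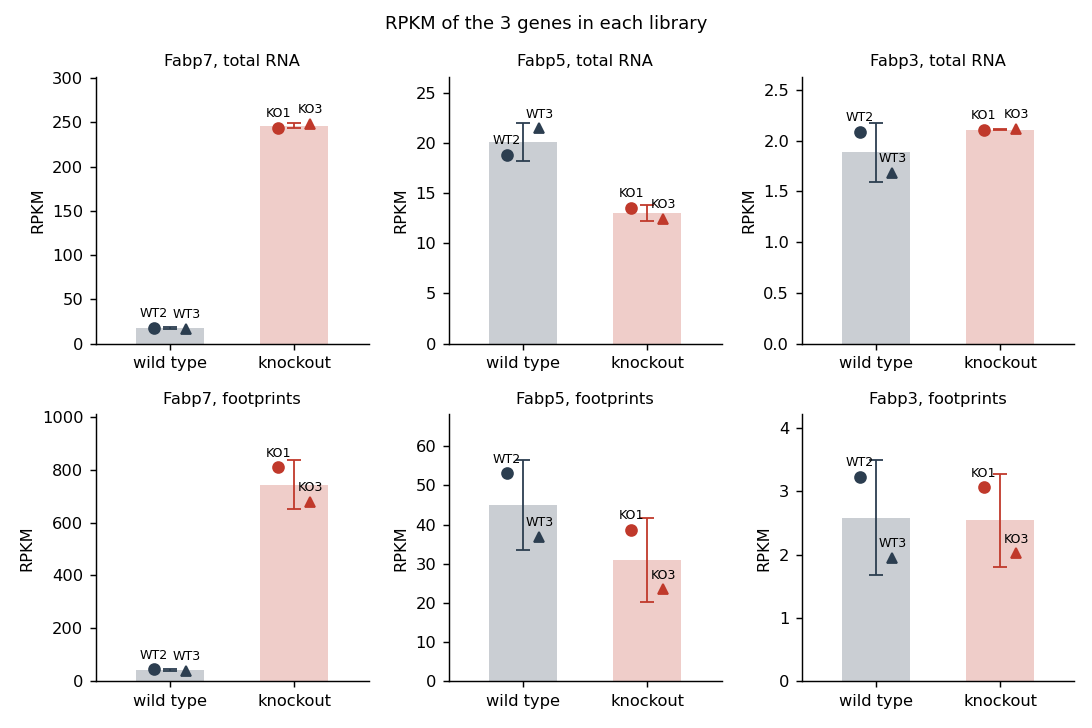
RPKM of Fabp7, Fabp5 and Fabp3 in total RNA and in footprints, 1 point per library of wild-type animals 2 and 3 and knockout animals 1 and 3. Fabp7 sits between 244 and 809.8 in the knockout libraries and between 16.6 and 43.7 in the wild-type ones. Fabp5 runs from 12.4 to 53.1 and Fabp3 from 1.68 to 3.23 over the same libraries.

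Fabp5 RNA was lower in the knockout. In total RNA it had 13.5 and 12.4 RPKM in knockout animals 1 and 3, and 18.8 and 21.4 RPKM in wild-type animals 2 and 3. Both knockout libraries lay below both wild-type ones, as in 30.3% of all genes tested, with means of 13.0 ± 0.796 and 20.1 ± 1.88 RPKM (SD, n = 2 each). The log2 fold change was -0.59 (SE 0.11, 95% interval -0.87 to -0.32), with a limma adjusted p (Benjamini-Hochberg) of 0.0475. Of the 2 members tested in total RNA, Fabp5 and Fabp3, 1 was thus called, where 4.09% of all genes were called and 1.61% were called lower. The values rest on 337 to 411 reads a library. The call sat at the threshold: the limma adjusted p ran from 0.0197 to 0.366 over the alternatives tried, and it was above 0.05 in each fit that lacked 1 of the 4 animals, at 0.197 with knockout 1 left out, 0.190 with knockout 3, 0.0573 with wild type 2 and 0.0837 with wild type 3.

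Footprints on Fabp5 did not pass the test. They were at 38.5 and 23.4 RPKM in knockout animals 1 and 3, and at 53.1 and 36.8 RPKM in wild-type animals 2 and 3. The groups overlapped, since knockout animal 1 lay above wild-type animal 3, whereas in 39.7% of genes the footprint groups did not overlap (22.6% with the knockout lower). The log2 fold change was -0.54 (SE 0.29, 95% interval -1.27 to 0.19; limma adjusted p 0.633), and it ran from -0.889 without knockout 1 to -0.194 without knockout 3. For microglia, which can express Fabp5, the summed total RNA of 9 listed markers was 117 and 119.6 RPM in the knockout and 162 and 166 in the wild type. Of the 8 tested, 2 were called lower by limma in total RNA (C1qb and Ctss) and 0 in footprints, where limma-voom also called 0 and 3 had an unadjusted p under 0.05. Over all genes 1.61% were called lower in total RNA and 0.104% in footprints. All 8 had a negative log2 fold change in total RNA, as had 6759 of the 12690 genes tested. Their part in the Fabp5 result was not tested.

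Fabp3 showed no difference that the tests could detect. In total RNA it had 2.11 RPKM in each of the knockout animals 1 and 3, and 2.09 and 1.68 RPKM in wild-type animals 2 and 3, from 298 to 579 reads. Knockout and wild type barely failed to overlap, with the knockout higher, as in 24.7% of all genes tested in total RNA (55% in either direction). The log2 fold change was 0.11 (SE 0.14, 95% interval -0.23 to 0.45; limma adjusted p 0.686). Footprints were at 3.06 and 2.02 RPKM in knockout animals 1 and 3, and at 3.23 and 1.94 RPKM in wild-type animals 2 and 3. Here the groups overlapped fully, and animals 1 and 2 were the high ones in both. The log2 fold change in footprints was -0.01 (SE 0.29, 95% interval -0.73 to 0.71; limma adjusted p 0.996), and its sign changed under other settings. The interval leaves room for a change of more than 1.5 times in either direction in footprints.

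Levels were compared between the genes only as footprint RPM per kilobase of coding sequence. On this scale Fabp7 stood at 5751 and 4854 in knockout animals 1 and 3, which placed it 7th and 6th of 13866 genes. It stood at 310.0 and 267 in wild-type animals 2 and 3, or 470th and 561st. A gene in the upper part of the wild-type range was thus among the most heavily read of the knockout cerebellum. Fabp5 was at 60.5 and 37.1 in the knockout and at 83.2 and 57.6 in the wild type. Fabp3 was at 45.1 and 30.0 in the knockout and at 47.4 and 28.5 in the wild type. The order Fabp7, Fabp5, Fabp3 held in each of the 4 animals. Fabp5 and Fabp3 were read in the same libraries, and Fabp5 stood above Fabp3 within each animal. Between animals their ranges were separate in the wild type and overlapped in the knockout, and their difference was not tested. Both carry the uncertainty from their pseudogenes.

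**Figure D2:**
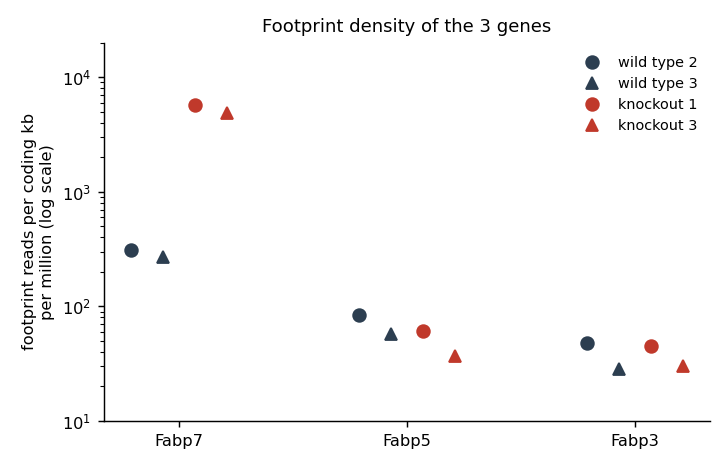
Footprint RPM per kilobase of coding sequence (log scale) for the 3 genes, 1 point per animal. Fabp7 lies at 267 to 310.0 in the wild type and 4854 to 5751 in the knockout, while Fabp5 (37.1 to 83.2) and Fabp3 (28.5 to 47.4) lie close together in both genotypes.

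Translational efficiency, the footprint level over the total RNA level of the same animal, showed whether ribosome load rose with the RNA. For Fabp7 the ratio in the authors' deposited table was 3.31 and 2.73 in knockout animals 1 and 3, and 2.44 and 2.28 in wild-type animals 2 and 3. Both knockout ratios were above both wild-type ones, as in 14.3% of genes (31.7% were apart in either direction). The log2 difference was 0.39 (SE 0.17, 95% interval -0.01 to 0.80), 691st of 12089 genes, and did not pass the test (limma, unadjusted p 0.0554, adjusted p 0.997). The interval runs from about no difference in efficiency to footprints that exceed the RNA difference of Fabp7 by 0.80 on the log2 scale. Efficiency is the quotient of the same levels by which Fabp7 was chosen, so its test is not independent of that choice.

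Neither of the other genes had a detectable change in efficiency. For Fabp5 the authors' deposited table gave ratios of 2.85 and 1.89 in knockout animals 1 and 3, and of 2.83 and 1.72 in wild-type animals 2 and 3. For Fabp3 the authors' deposited table gave 1.45 and 0.955 in knockout animals 1 and 3, and 1.54 and 1.16 in wild-type animals 2 and 3. In both genes the groups overlapped, and animals 1 and 2 had the high ratio. The log2 difference was 0.05 for Fabp5 (SE 0.35, 95% interval -0.77 to 0.88; limma adjusted p 0.997) and -0.12 for Fabp3 (SE 0.32, 95% interval -0.87 to 0.63; limma adjusted p 0.997). Of the 3 members 0 were called by limma, where 2 of 12089 genes (0.0165%) were called and 4.55% had an unadjusted p under 0.05. Of the 3, 0 had an unadjusted p under 0.05 and 0 were called by limma-voom on the recovered reads.

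**Figure D3:**
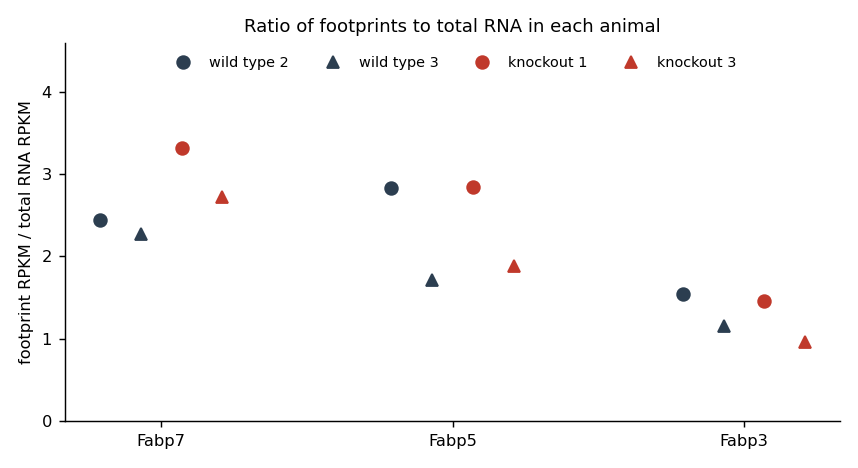
Translational efficiency (ratio of footprint to total RNA RPKM) of the 3 genes, 1 point per animal. Fabp7 is at 2.73 and 3.31 in the knockout and at 2.28 and 2.44 in the wild type, and the points of the genotypes overlap for Fabp5 and Fabp3.

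Of the other genes of the intracellular lipid binding protein family, few were expressed. Fabp1, Fabp2, Pmp2 and Fabp9 were listed at 0 in every library, and Fabp4, Fabp6, Fabp12, Crabp1, Rbp2 and Rbp7 stayed under a mean of 1 RPKM and were not tested. The adipocyte gene Fabp4, which can also be made by endothelium, had footprint RPKM of 0 and 0.0858 in knockout animals 1 and 3 and of 0.754 and 1.04 in wild-type animals 2 and 3, apart as in the 22.6% of genes with the knockout lower. Its total RNA was at 0.0621 and 0.335 RPKM in the knockout and 0.0922 and 0.173 in the wild type, which overlapped. Crabp2, a carrier of retinoic acid, was tested. Crabp2 had total RNA RPKM of 6.92 and 5.10 in the knockout and of 6.73 and 9.38 in the wild type, which overlapped (log2 fold change -0.37, SE 0.19, limma adjusted p 0.328). Its footprint difference did not pass either (log2 fold change -0.03, limma adjusted p 0.985), and its sign changed under other settings.

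The Fabp7 promoter is shown because the genes named as its regulators were read beside it. The RefSeq promoter table (GRCm38.p6, the mm10 build) held Fabp7 and Fabp3, 2 of the 3 members. The sequence printed is chr10:57784673-57784880, plus strand, which ends just before the annotated gene, and capitals mark the match to AGGTCA read on the other strand.
Fabp7: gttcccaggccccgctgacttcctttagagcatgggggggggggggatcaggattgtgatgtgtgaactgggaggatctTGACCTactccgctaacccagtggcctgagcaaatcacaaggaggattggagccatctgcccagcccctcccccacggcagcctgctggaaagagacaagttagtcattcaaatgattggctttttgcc
AGGTCA is the core of the sites of the REV-ERB and ROR receptors and of many other nuclear receptors. The match lies 171 to 166 bases before the RefSeq start, at 57784752 to 57784757, and 14.02% of 32851 promoters hold AGGTCA on either strand in the 250 bases before their start. The E-box CACGTG (6.02% of promoters), to which BMAL1 binds with CLOCK, the D-box TTANGTAA (2.06%) and the RBPJ site GTGGGAA (5.42%) had no match in that window of Fabp7. The same window of Fabp3 had no match to any of the 4, and none of the 4 strings contains another. A match of this kind is a string of letters and not a measured binding site.

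Among 20 listed known or possible regulators of Fabp7, 19 were tested in total RNA and 4 fell, where 1.61% of all genes were called lower. The list joins the Notch pathway, Pax6, the POU and NFI factors, Sox2, Sox9 and the REV-ERB and ROR receptors. Nr1d2, which encodes the repressor REV-ERBβ, had 1.92 and 1.85 RPKM in knockout animals 1 and 3 and 26.5 and 26.8 RPKM in wild-type animals 2 and 3 (log2 fold change -3.26, limma adjusted p 0.000227). Nr1d1, which encodes REV-ERBα, had 30.1 and 26.1 RPKM in the knockout and 116.5 and 107 RPKM in the wild type (log2 fold change -1.96, limma adjusted p 0.0018). Both are direct targets of BMAL1 by textbook knowledge, and in each the groups were far apart. Pou3f2 and Pou3f3, the POU factors Brn2 and Brn1, fell by less: the log2 fold change was -0.53 for Pou3f2 (limma adjusted p 0.0459) and -0.48 for Pou3f3 (limma adjusted p 0.0470). Both POU calls were lost when knockout 1, knockout 3 or wild type 2 was left out, and also in 1 fit over all libraries, with no filter, with no variance trend and with quantile normalization. The other 15 regulators were not called by limma, and the median over the 19 was -0.08 against -0.02 over all genes tested. At an unadjusted p under 0.05 in limma, 2 were higher and 4 lower. Limma-voom called 3 of the 19 higher and 4 lower in total RNA, where it called 903 of 12390 genes higher. In footprints 1 of 18 was called lower, where 0.104% of all genes were. It was Nr1d2, at 1.20 and 1.53 RPKM in the knockout and 14.2 and 13.4 RPKM in the wild type (log2 fold change -2.65, limma adjusted p 0.0251), and its fold change ran from -2.75 to -2.55 when each animal was left out. With no filter the footprint call of Nr1d2 was lost. Nr1d1 footprints were at 36.9 and 70.2 RPKM in the knockout and 273 and 339 in the wild type. Their log2 fold change was -2.55 (limma adjusted p 0.0788), and limma-voom called 2 genes of the list lower in footprints.

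Of the 121 genes of the 8 pathway lists, family and regulators included, 99 were tested in total RNA, of which 4 rose and 5 fell, beside the 4.09% called over all genes. Of these 9, the 4 just described are transcription factors of the regulator list. The median log2 fold change of the 99 was -0.02, and that of all genes was -0.02. In footprints 0 rose and 2 fell of 99 tested, where 0.233% of all genes were called and 10.4% had an unadjusted p under 0.05, and in translational efficiency limma called 0 of 95. At an unadjusted p under 0.05 in limma, 3 were higher and 8 lower in footprints, and 3 were higher and 3 lower in efficiency, while limma-voom called 1 higher and 3 lower in footprints and 0 in efficiency. In 1 fit over all libraries and with no filter the total RNA calls of Dbi, Lipe, Ppard, Pou3f2 and Pou3f3 were lost, and with no filter also those of Plin4 and Rara. A fit that lacks 1 animal takes the spread of that group from the other group. These lists were chosen with earlier results of the same libraries known, so their counts are no independent support for a direction.

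Of 14 tested genes that take up and activate fatty acids, 1 rose in total RNA, where 2.48% of all genes were called higher. Dbi, the acyl-CoA binding protein that receives activated fatty acids, had total RNA RPKM of 82.0 and 87.1 in the knockout and of 56.0 and 56.7 in the wild type. Its log2 fold change was 0.58 (SE 0.09, limma adjusted p 0.0253), and the call was lost when knockout 1, knockout 3 or wild type 2 was left out. The other 13 were not called. Mfsd2a, which carries docosahexaenoic acid in lysolipid form into the brain and is named in total RNA after its values were seen, had the wider difference: 45.6 and 60.1 RPKM in the knockout and 158 and 97.4 in the wild type, without overlap (log2 fold change -1.23, SE 0.24, limma adjusted p 0.0507). Limma-voom on the recovered reads called 2 genes of this list higher, Dbi and Slc27a1, and 2 lower, Mfsd2a and Acsl5. In footprints the widest differences were those of the transporter genes Slc27a6 (log2 -1.29, limma adjusted p 0.156) and Mfsd2a (log2 -1.27, limma adjusted p 0.265), which did not pass.

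Of 9 tested lipid droplet genes 1 rose and 1 fell in total RNA, where 2.48% of all genes were called higher and 1.61% lower. Plin4, which coats droplets, fell, with total RNA RPKM of 3.91 and 3.42 in the knockout and of 13.1 and 14.2 in the wild type (log2 fold change -1.65, SE 0.12, limma adjusted p 0.00346). Its footprints were at 2.19 and 1.85 RPKM in the knockout and at 10.9 and 11.2 in the wild type (log2 fold change -1.99, SE 0.18, limma adjusted p 0.0351), and -2.08 to -1.91 when each animal was left out. With no filter this footprint call was lost, and limma-voom called 0 of 8 lipid droplet genes in footprints. Lipe, hormone-sensitive lipase, rose in total RNA, with 99.1 and 84.9 RPKM in the knockout and 60.4 and 57.9 in the wild type (log2 fold change 0.63, limma adjusted p 0.0354), a call lost without each of the 4 animals in turn. The other 7 of 9 tested were not called by limma in total RNA, while limma-voom called 1 gene of the list higher and 3 lower.

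Of 11 tested nuclear receptors and coactivators that respond to lipids, 2 rose in total RNA, where 2.48% of all genes were called higher. Rara, the retinoic acid receptor α, had 200.4 and 159.5 RPKM in the knockout and 65.7 and 75.7 in the wild type (log2 fold change 1.33, SE 0.14, limma adjusted p 0.00902). Ppard, the receptor to which Fabp5 is known to bring fatty acids, had 41.0 and 35.3 RPKM in the knockout and 24.1 and 19.3 in the wild type (log2 fold change 0.79, SE 0.14, limma adjusted p 0.0390), and the call was lost when knockout 1, knockout 3 or wild type 3 was left out. Neither passed in footprints by limma, where the log2 fold change was 1.04 for Rara (limma adjusted p 0.0792) and 0.48 for Ppard (limma adjusted p 0.681). Limma-voom called 1 of 10 genes of the list higher and 0 lower in footprints, and 2 higher and 1 lower in total RNA.

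In the remaining lipid lists no gene was called in total RNA or in footprints by limma. Among 20 tested genes of fatty acid oxidation the widest total RNA differences were those of Etfb, which passes electrons from the oxidation (log2 -0.36, limma adjusted p 0.143), and Acads, a dehydrogenase of short chains (log2 0.34, limma adjusted p 0.258). Among 14 genes of synthesis and desaturation they were those of the elongases Elovl7 (log2 0.37, limma adjusted p 0.238) and Elovl2 (log2 0.36, limma adjusted p 0.103), the latter a step in making docosahexaenoic acid. Among 10 endocannabinoid genes, whose lipids Fabp5 and Fabp7 can carry, they were those of Abhd4 (log2 0.39, limma adjusted p 0.107) and Dagla (log2 0.26, limma adjusted p 0.188). In total RNA these 3 lists held 4 genes with an unadjusted p under 0.05, 1 for oxidation, 1 for synthesis and 2 for endocannabinoids, where 22.1% of all genes had one, and in footprints they held 1, for oxidation. Limma-voom called 1 gene of the 3 lists in total RNA, Abhd4, and 0 in footprints.

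**Figure D4:**
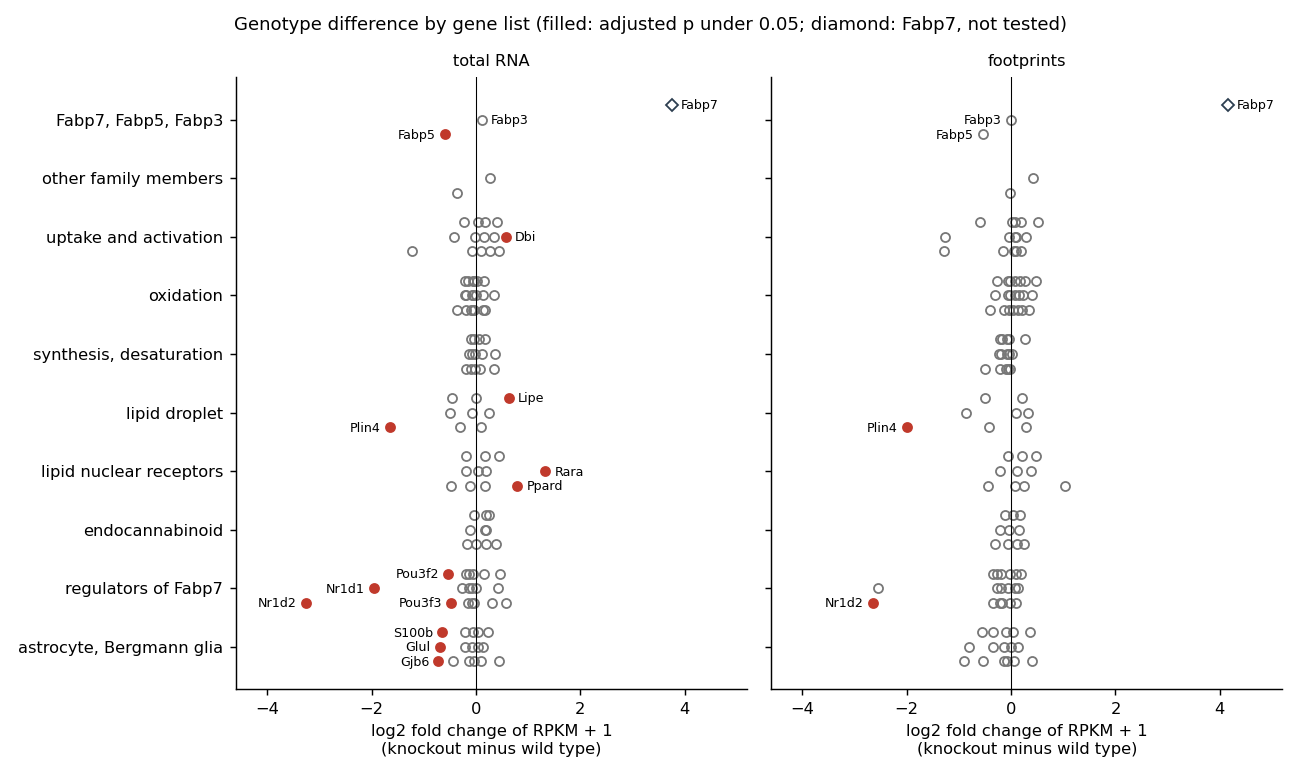
log2 fold change of RPKM + 1 (knockout minus wild type) in total RNA and footprints, 1 point per tested gene of each list, filled where the limma adjusted p was under 0.05. Fabp7, drawn as a diamond because it was not tested, lies at 3.76 and 4.16, beyond every listed gene, and Nr1d2 lies lowest at -3.26 in total RNA.

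Of 16 markers of astrocytes and Bergmann glia, the cells known for Fabp7, 0 rose and 3 fell in total RNA by limma, and the median log2 fold change was -0.07. At an unadjusted p under 0.05, 2 were higher and 5 lower, where 1.61% of all genes were called lower and 22.1% had such a p in either direction. The 2 were Gfap (log2 fold change 0.45, limma adjusted p 0.0515) and Aqp4 (0.23, limma adjusted p 0.134), named after their values were seen, and limma-voom called both higher and 4 markers lower. Glul, glutamine synthetase, had 68.7 and 70.6 RPKM in the knockout and 114.5 and 112.6 in the wild type (log2 fold change -0.70, limma adjusted p 0.0129). Gjb6, the gap junction protein connexin 30, had 5.83 and 6.98 RPKM in the knockout and 11.3 and 11.0 in the wild type (log2 fold change -0.72, limma adjusted p 0.0354), and S100b, the third that fell and named after its values were seen, had a log2 fold change of -0.65 (limma adjusted p 0.0174). With knockout 1 or knockout 3 left out the calls of all 3 were lost, and that of Gjb6 also with wild type 2 or wild type 3 left out. The summed total RNA of the 16 was 8409 and 8401 RPM in knockout animals 1 and 3, and 9156 and 8912 in wild-type animals 2 and 3. The part of these cells in the Fabp7 difference was not tested. Gdf10, a marker of Bergmann glia picked out after its values were seen, had 9.32 and 9.40 RPKM in the knockout and 10.9 and 11.1 in the wild type (log2 fold change -0.21, limma adjusted p 0.283).

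Progenitor markers were scarce, at sums of 60.9 to 70.9 RPM over 8 of 9 genes in total RNA, with Atoh1 listed at 0 in every library. Among 6 tested in total RNA, 1 rose and 2 fell, where 2.48% of all genes were called higher and 1.61% lower. Sox3, a factor of neural progenitors, had total RNA RPKM of 3.24 and 3.66 in the knockout and of 0.308 and 0.26 in the wild type (log2 fold change 1.79, limma adjusted p 0.00398), and its footprints were at 8.88 and 12.7 RPKM in the knockout and 0.321 and 0.820 in the wild type (log2 fold change 2.91, limma adjusted p 0.0401, and 2.67 to 3.14 when each animal was left out). Top2a, a gene of dividing cells, had 0.5595 and 0.723 RPKM in the knockout and 2.02 and 1.70 in the wild type (log2 fold change -0.80, limma adjusted p 0.0454). Its call was lost in 1 fit over all libraries, with no filter, with a pseudocount of 0.1, with quantile normalization and when knockout 1, knockout 3 or wild type 3 was left out. Choroid plexus RNA differed widely between libraries: the sum of 9 markers was 1859 and 2195 RPM in knockout animals 1 and 3, and 873 and 66.9 in wild-type animals 2 and 3. Of the 7 tested, all had a higher level in both knockout libraries than in both wild-type ones, as had 24.7% of all genes. Of these 7, 2 were called higher, where 2.48% of all genes were, and the median log2 fold change was 2.11. Fabp7 was at 17.9 and 16.6 RPKM in those same wild-type libraries, and the part of choroid plexus in its difference was not tested. Among the other cell types, 8 of 10 oligodendrocyte markers had a negative fold change, with a median of -0.42 and 1 call, Mag, lower. For knockout animals 1 and 3 their total RNA sums were 4077 and 3950 RPM, against 6239 for wild type 2 and 4599 for wild type 3. Of 8 granule cell markers 2 were called higher, Grin2c and Fat2. Also called were Cldn5 (endothelium), Igfbp2 (meninges) and Tph2 (brainstem), higher, and Dcn (meninges) and Slc17a6 (brainstem), lower, all lost with no filter. Brainstem genes Hoxa5 and Hoxb5 reached 40.6 and 31.2 RPKM in total RNA of wild type 2, with 0 to 1.57 elsewhere. The part of brainstem tissue was not tested.

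Genes whose levels followed each member over the 8 libraries were ranked among 12088 genes by the root mean square difference of log2(RPKM + 1), each gene centred on its own mean. The nearest to Fabp7 was Slc5a8, a transporter of monocarboxylates, with a difference of 0.54 against a median of 2.15 over all genes. Slc5a8 had total RNA RPKM of 11.8 and 10.7 in knockout animals 1 and 3 and of 0.409 and 0.479 in wild-type animals 2 and 3, high and low in the same libraries as Fabp7. Cdkn1a (0.87), Sox3 (0.91), Npas2 (0.99) and Igsf1 (0.99) came next. Cdkn1a encodes the cell cycle inhibitor p21 and Npas2 a partner of BMAL1. For Fabp5 the nearest were Pfdn4 (0.14), P2ry13 (0.14), a purine receptor gene typical of microglia, and Pcsk1 (0.15), against a median of 0.74. For Fabp3 they were Trip4 (0.08), As3mt (0.09) and BC052040 (0.10), against a median of 0.43, and with so little variation in Fabp3 many genes lie near it. The ranking is a description over 8 libraries from 4 animals. The neighbours share the pattern of their member because they were picked for it.

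**Figure D5:**
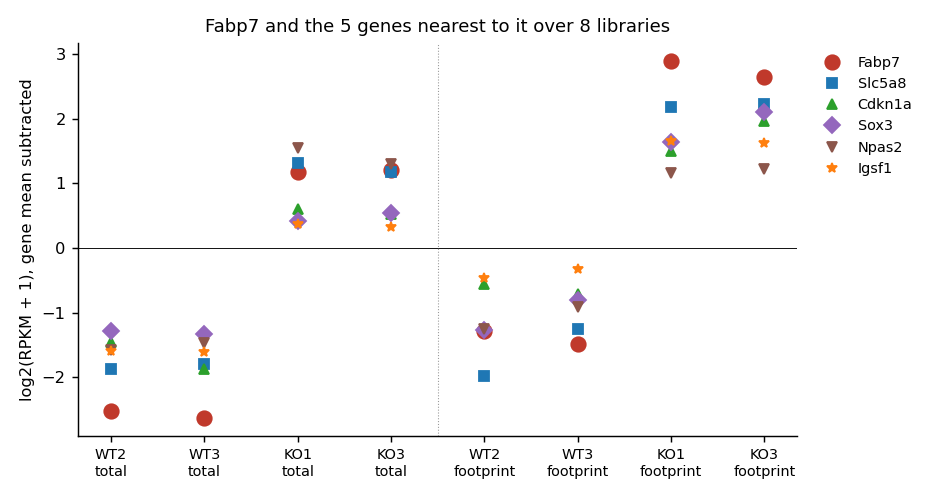
log2(RPKM + 1) of each gene, centred on its mean over the 8 libraries, for Fabp7 and the 5 genes nearest to it. Fabp7 and its 5 neighbours, which were picked for this likeness, are high in the 4 knockout libraries and low in the 4 wild-type ones.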

How the data were processed

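The authors deposited a table of RPKM per gene and library and a table of the ratio of footprint to total RNA RPKM per animal, both with a mean read count per gene, per the file headers. The submitters' processing notes name mm10, Bowtie, STAR and Cufflinks. RPKM values were compared within a gene only. Of the deposited efficiency ratios, 100% of 56065 lay within 2% of the quotient of the RPKM values. Whole reads recovered from the RPKM steps and the mean read count (a geometric mean) were whole to within 0.1 for 100% of 3328 low values checked, over 13880 genes.

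limma 3.58.1 (R 4.3.3) with a variance trend was run on log2(RPKM + 1) after leaving out genes whose mean over the compared libraries was under 1 RPKM, with Benjamini-Hochberg adjustment over all genes tested and a threshold of 0.05. Efficiency was the interaction of genotype and library kind. Groups were 2 animals against 2, and p-values rest on the spread between these animals, drawn by limma toward a trend over all genes tested. The main efficiency fit took the 8 libraries as independent, and the animal was a block only in an alternative. The fits were tested on simulated data. Sequence work used Python 3.11.15 and Biopython 1.88.

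The members, lists and tests were chosen with earlier results of these data known. Named are the 3 members, Crabp2 of the other family genes (the result of 1 further gene is not reported here), the called genes of each pathway list (at most 4; where none, the 2 with the widest difference, in total RNA and footprints), at most 2 called genes of a marker list, Arntl, and the nearest genes by pattern. The footprint and total RNA libraries of 1 animal came from 1 lysate, per the labels' protocols, so they are paired; their deviations correlated at -0.004 (knockout) and 0.259 (wild type) over 12089 genes. Alternatives were a pseudocount of 0.1, no filter, a mean read count of at least 100, quantile normalization, no variance trend, limma-voom on the recovered reads, 1 fit over all libraries, the animal as a block, and leaving out each animal. The tests were designed for all labelled libraries, of which 2 of total RNA were not analysed here.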

Additional observations from a re-analysis of the deposited data

How the results depend on the processing

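Fabp7 kept its direction in total RNA and footprints under every alternative run: log2 3.76 in total RNA became 3.86 with limma-voom and 3.83 with a pseudocount of 0.1, and 3.71 to 3.82 when each animal was left out; footprints gave 4.03 to 4.28. Fabp5 in total RNA stayed at -0.59 but was no longer called in 1 fit over all libraries (adjusted p 0.366), with no filter (0.146) or with no variance trend (0.0612), nor at -0.58 with quantile normalization (0.0525); leaving out each animal gave -0.68 to -0.50. Fabp3 in footprints turned to 0.007 with limma-voom and 0.017 with quantile normalization, and ran from -0.271 to 0.251 without each animal; Crabp2 in footprints turned to 0.038 with limma-voom and ran from -0.244 to 0.186 without each animal. The cause was not tested.

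In efficiency, leaving out each animal gave 0.25 to 0.54 for Fabp7, -0.298 to 0.401 for Fabp5 and -0.337 to 0.094 for Fabp3, none of them called. With the replicate block of the animal, which pairs footprints and total RNA, Fabp7 stayed at 0.39 (limma adjusted p 0.999) and 1 gene was called in place of 2; the block changed no other call of the members or lists.

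Counts of calls moved more. For 519 genes in total RNA they were 217 in 1 fit, 1464 with limma-voom, 798 with at least 100 reads, 26 with no filter and 117 to 563 without each animal. For 29 in footprints they were 315, 207, 57 and 1 in that order, 17 with a pseudocount of 0.1 and 1 to 6 without each animal. For 2 in efficiency they were 1 with limma-voom, 5 with a pseudocount of 0.1, 0 with no filter, no variance trend or quantile normalization, and 0 without each animal. For 9 pathway genes in total RNA they were 4 in 1 fit, 19 with limma-voom, 2 with no filter, 5 with no variance trend and 4 to 8 without each animal, and for 2 in footprints 5, 4, 0 and, without each animal, 0. Of the values of single list and family genes under these alternatives, 426 kept direction and side of the threshold, 137 were no longer called, 8 became called and 3, those of Crabp2, changed sign.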

Other observations

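Fabp5 and Fabp3 had more footprints in knockout animal 1 than in knockout animal 3, and more in wild-type animal 2 than in wild-type animal 3. On the log2 scale the gap between the animals of 1 genotype was 0.706 and 0.53 for Fabp5 and 0.588 and 0.733 for Fabp3, in the knockout and the wild type. In total RNA the same gaps were 0.122 and -0.169 for Fabp5 and -0.008 and 0.337 for Fabp3. The 933 genes with a coding length under 500 bases and at least 100 reads had median footprint gaps of 0.017 and 0.054, below the gaps of Fabp5 and Fabp3. How many of those genes had gaps as wide was not examined, so the gaps are not shown to be unusual. Fabp7, which is as short, had footprint gaps of 0.245 and 0.214. Knockout animal 1 and wild-type animal 2 had the deeper footprint libraries of their genotype, and the part of depth in the gap was not tested.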
